A study of Mus musculus with 78 samples.

Results

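The genes described here are the 40 mouse genes of glucose uptake, glycolysis, gluconeogenesis and lactate transport, followed through early embryo development. They were chosen by name, with earlier results of these data known, and all 40 were found among the 22563 genes that 3 deposited expression tables share. The list holds carriers that bring glucose in, the enzymes of each glycolytic step with their alternative forms, the lactate dehydrogenases and lactate carriers, the kinases that switch off pyruvate dehydrogenase, and the enzymes particular to gluconeogenesis. The study compared gene expression and the epigenome of tissues around implantation and gastrulation. Smart-Seq2 expression libraries were analysed from C57BL/6N x DBA/2N embryos, 30 in all and 2 for each of 15 groups, with no mutant in any of them. The molecule is given as polyA RNA except for the 4 libraries cultured for 1 or 2 days, whose label reads genomic DNA although their table holds expression values.

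At embryonic day (E) 3.5 the blastocyst gave the inner cell mass (ICM), which forms the embryo proper, and the trophectoderm (TE), which forms the placenta. The ICM was taken again at E4.0. These 3 groups came from superovulated mothers, were separated by immunosurgery and were lysed directly. Epiblast (Epi) and visceral endoderm (VE), an outer layer that feeds the egg cylinder, were taken at E5.5 and at E6.5. At E7.5 the groups were ectoderm (Ect), endoderm (End), mesoderm (Mes) and primitive streak (PS). The E5.5 to E7.5 groups came from natural matings and their RNA was purified on columns, so stage and preparation cannot be told apart between E4.0 and E5.5. A last set left the uterus of superovulated mothers at E4.5 and was then grown in CMRL 1066 medium with added glutamine, pyruvate and fetal bovine serum, for 1, 2 or 4 days. The 1-day and 2-day libraries are labelled whole embryo while their extraction text describes an isolated ICM. The headers of their values appear to name E4.0, where their sample labels give E4.5. After 4 days Epi and VE were separated.

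As background, glucose enters cells through carriers of the Slc2a family, is trapped by hexokinase and is split by glycolysis into pyruvate. Pyruvate either enters mitochondria, where pyruvate dehydrogenase opens the way to the tricarboxylic acid cycle, or is reduced to lactate, which leaves through carriers of the Slc16a family. Preimplantation mouse embryos are known to rely first on pyruvate and to use more glucose from the blastocyst stage on. Gluconeogenesis runs the pathway backwards with a few enzymes of its own.

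Values are FPKM, fragments scaled to transcript length and library size and so a level per length, as the authors deposited them. The depth of the libraries is unknown from these tables. The summed FPKM ran from 272055 to 486836 in the 22 uncultured libraries, and the correlation between replicates over genes ran from 0.898 to 0.994. Differences were tested with limma on log2(FPKM + 1) over 13493 genes. A gene was called where its adjusted p was under 0.05 and its log2 fold was at least 1 in size, and log2 folds on this scale understate changes of weakly expressed genes. Of the 40 members, 35 passed the filter of 1 FPKM in at least 2 libraries. Hk3, Eno2, Pdk4, Pck1 and G6pc did not, and the highest of their values was 1.38 FPKM, for Pdk4. The labels do not say that replicates came from separate litters, so p-values rest on the spread between these libraries. In the main fit each gene had 1 estimate of spread, shared by all 15 groups. A test between tissues therefore also carries the spread of groups outside it. Replicates lay farthest apart after 1 and 2 days of culture (SD over genes 1.11 and 1.10 on the log2 scale) and closest in E7.5 Mes (0.258). In such bulk libraries, fewer cells of a type and less RNA per cell cannot be told apart.

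Marker genes were compared with the labels of the tissues that the results set side by side. The 7 VE markers summed to 13.8 to 19.4 FPKM in E5.5 Epi, against 3298 to 4518 in E5.5 VE, and to 2.40 to 19.7 in E6.5 Epi, against 6236 to 6929 in E6.5 VE. They also summed to 6708 to 7354 FPKM in E7.5 End, as high as in E6.5 VE, so the E7.5 End libraries carry VE markers. The 6 epiblast markers summed to 983 to 1079.7 FPKM in E5.5 Epi, against 119 to 213 in E5.5 VE, and to 947 to 1012 in E6.5 Epi, against 296 to 305 in E6.5 VE. The 6 trophectoderm markers summed to 181 to 265 FPKM in E3.5 ICM, against 1329 to 3029 in E3.5 TE. After 2 days of culture they summed to 1482 to 3531 FPKM, and after 1 day to 1263 to 1325. E6.5 VE held 931 to 1134 FPKM of them and E7.5 End 1182 to 1270, so these markers were not confined to TE. The 5 primitive endoderm markers (Gata4, Gata6, Sox17, Pdgfra and Sox7) summed to 95.7 to 108.5 FPKM in E4.0 ICM, against 0.0578 to 0.410 in E5.5 Epi. In E5.5 VE they summed to 39.4 to 70.8 FPKM and in E3.5 ICM to 43.1 to 45.2. The 6 markers of pluripotent ICM summed to 134 to 205 FPKM in E3.5 TE, against 525 to 560 in E3.5 ICM. Whether such sums reflect mixed tissues or expression native to the tissue was not tested, nor was their part in the results below.

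Together the 40 genes took a larger share of the summed FPKM from E5.5 on. They made up 0.531% ± 0.00863 of all FPKM in E3.5 ICM and 0.352% ± 0.0896 in E3.5 TE (SD, n = 2 in each group here), and 0.577% ± 0.135 in E4.0 ICM. At E5.5 the share was 1.99% ± 0.00352 in Epi and 1.06% ± 0.0682 in VE, and at E6.5 it was 2.09% ± 0.204 in Epi and 1.72% ± 0.0793 in VE. At E7.5 it lay between 1.90% ± 0.0917 in Mes and 2.68% ± 0.277 in Ect. E3.5 ICM, E3.5 TE and E4.0 ICM held the lowest shares of the uncultured series.

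**Figure D1:**
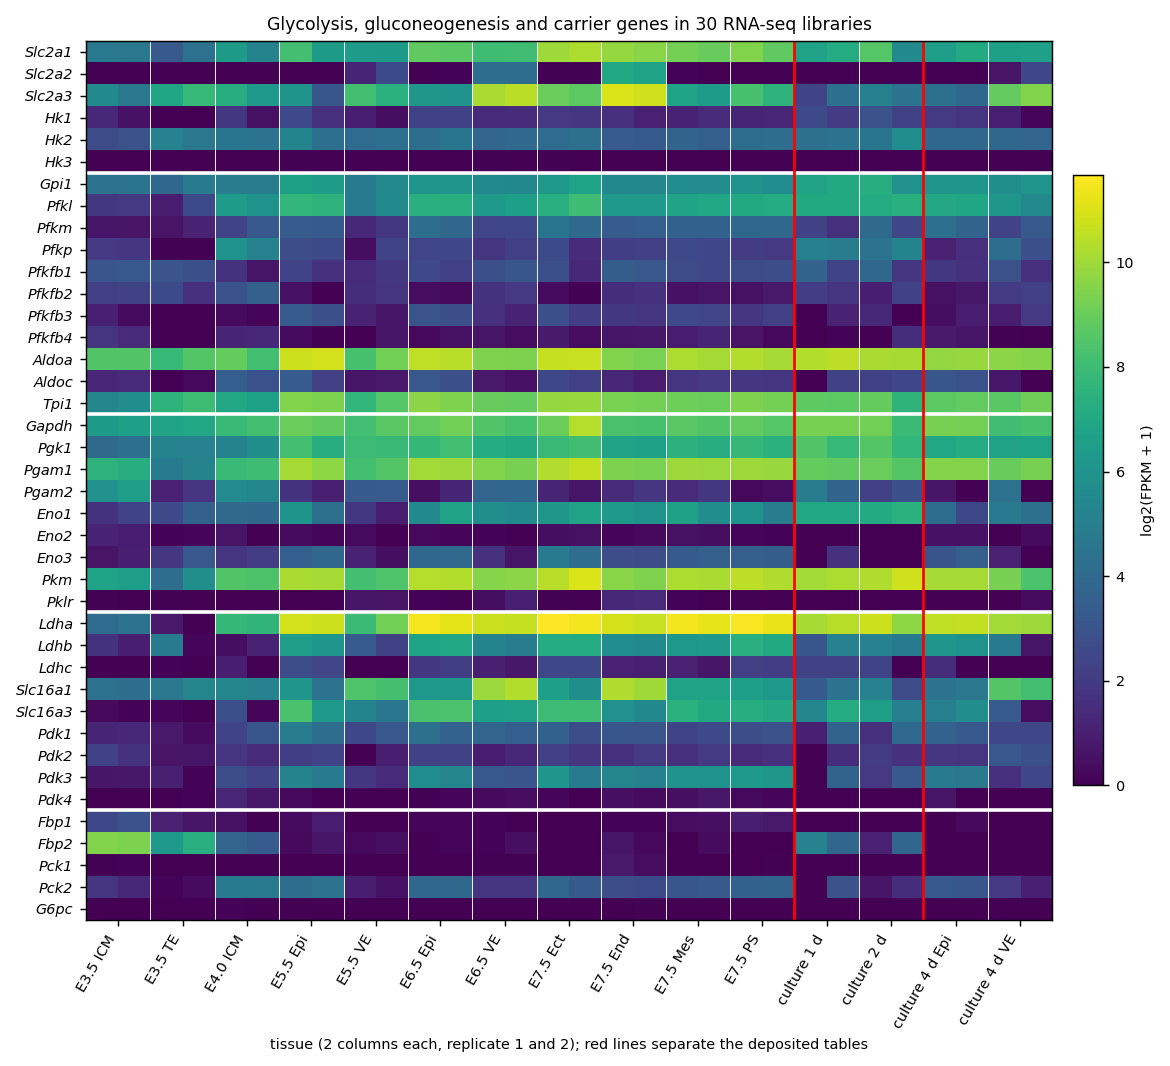
Level of each of the 40 genes (rows, grouped by role) in each of the 30 libraries (columns, 2 per tissue), as log2(FPKM + 1) in colour. Aldoa, Pgam1, Pkm and Ldha are bright from E5.5 on, Fbp2 is bright at E3.5, and Slc2a3 and Slc16a1 are brightest in E6.5 VE and E7.5 End.

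The members were called more often than other genes in most of the early comparisons. For E3.5 ICM over E3.5 TE, 14 of 35 members (40%) were called, 9 higher and 5 lower, where 17.3% of all genes were called (9.54% higher and 7.75% lower). The E4.0 ICM over the E3.5 ICM gave 16 (45.7%), 13 higher and 3 lower, against 20.6% of all genes (15.8% higher and 4.80% lower), with a median log2 fold of 1.09 over the members and 0.27 over all genes. E5.5 Epi over E4.0 ICM gave 20 (57.1%), 14 higher and 6 lower, against 17.6% (8.67% higher and 8.94% lower), with medians of 0.90 and 0.05. For E5.5 Epi over E5.5 VE the count was 25 (71.4%), 21 higher and 4 lower, against 36.7% of all genes (27.1% higher and 9.60% lower), with medians of 1.36 and 0.36. E6.5 Epi over E6.5 VE gave 13 (37.1%), 8 higher and 5 lower, against 16.5% (6.95% higher and 9.58% lower). Leaving out 1 library moved 2 of these counts by over 1.5 times: E3.5 ICM over TE gave 9 members without E3.5 TE replicate 1, and E6.5 Epi over VE gave 6 without E6.5 Epi replicate 1, 8 without E6.5 VE replicate 1 and 6 without E6.5 VE replicate 2. These comparisons share libraries with each other, so their counts are not independent.

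In other comparisons the members were called about as often as other genes, or seldom. E5.5 VE over E4.0 ICM gave 14 members (40%), 5 higher and 9 lower, against 35.4% of all genes (9.66% higher and 25.7% lower). E6.5 VE over E5.5 VE gave 8 (22.9%), 8 higher and 0 lower, against 27.2% (24.7% higher and 2.49% lower), and after quantile normalization 4 were higher and 2 lower. The count was 4 without E5.5 VE replicate 1 and 4 without E6.5 VE replicate 2. The median of all genes was 0.50 in that comparison, so the E5.5 VE libraries read lower for many genes, and the members' median was 0.76. E7.5 End over E7.5 Mes gave 4, all higher, against 10.2% (7.97% higher and 2.24% lower), and E7.5 End over E6.5 VE gave 1, against 4.26% (3.39% higher and 0.875% lower). For E7.5 Ect over E6.5 Epi the count was 1, against 1.07% (0.497% higher and 0.578% lower). E6.5 Epi over E5.5 Epi called 0 members in limma, with 3 of 35 at an unadjusted p under 0.05, where 0.978% of all genes were called (0.430% higher and 0.548% lower). E7.5 PS over E6.5 Epi also called 0, with 4 at an unadjusted p under 0.05, against 3.74% (2.56% higher and 1.18% lower), and E7.5 Mes over E7.5 PS called 0, with 2, against 3.38% (1.57% higher and 1.81% lower).

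**Figure D2:**
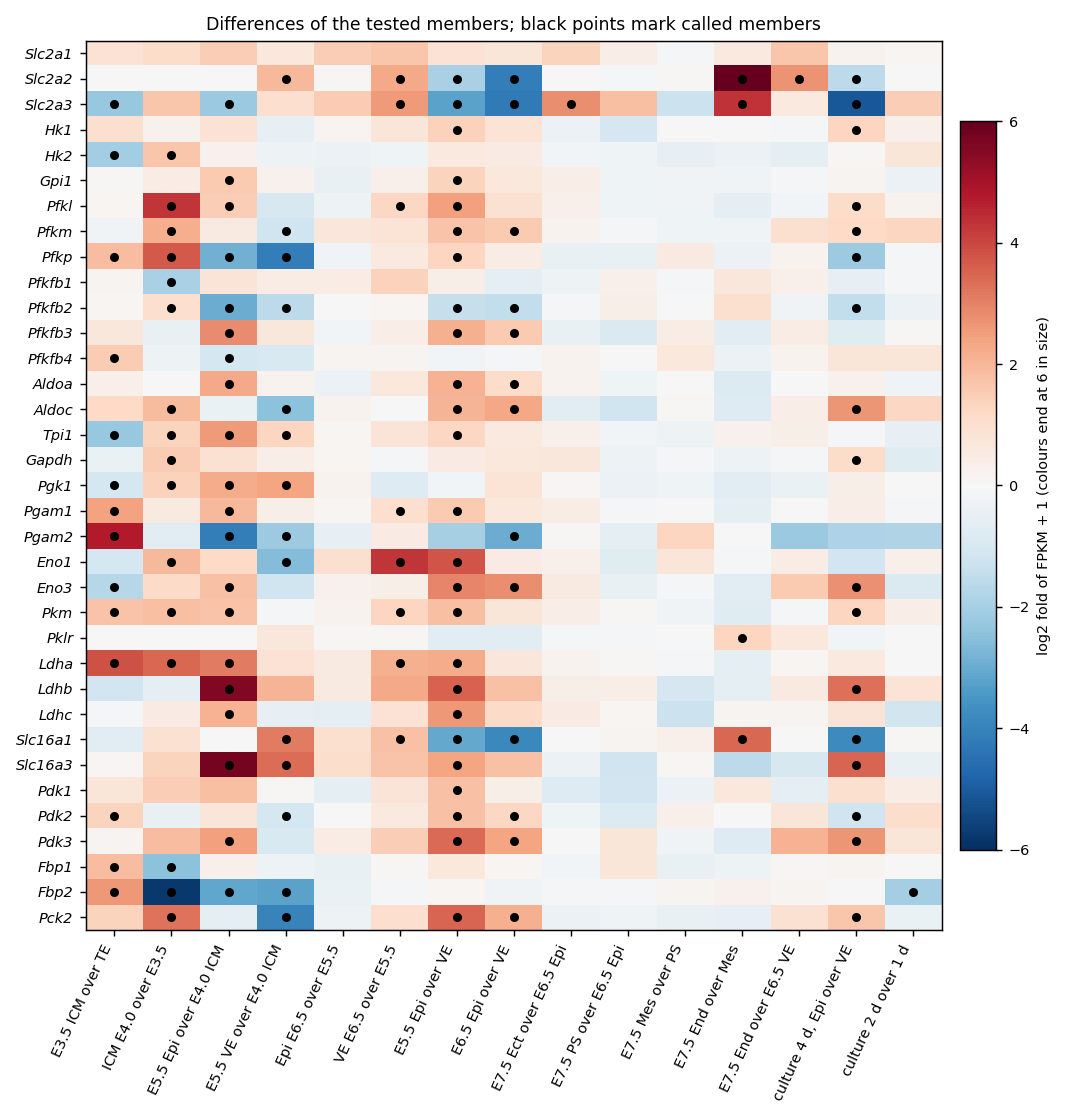
Log2 fold of FPKM + 1 of the 35 tested members (rows) in 15 comparisons (columns), red where the tissue named first is higher, with black points on the called members. The fullest columns are E5.5 Epi over E5.5 VE, E5.5 Epi over E4.0 ICM, cultured Epi over VE and E4.0 ICM over E3.5 ICM, with 25, 20, 17 and 16 members.

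Promoter sequences are shown for 6 members whose levels the results turn on. Hypoxia-inducible factors bind sites with the core ACGTG or GCGTG, and E-box factors such as Myc bind CACGTG, which always holds an ACGTG. RefSeq (GRCm38.p6) gave 60 windows for 39 members, each 250 bases before to 50 bases after a transcript start, and none for Slc2a3. On either strand, ACGTG was found in 23 of the 60 windows (38.3%), where 19.6% of all 32851 RefSeq promoter windows hold it. GCGTG was found in 28 (46.7%), against 32.4% of all windows, and CACGTG in 7 (11.7%), against 7.15%. A match describes the letters and is not a bound site. Each of these motifs holds a CG, and the windows compared were not matched for base content. In the sequences below, capitals mark ACGTG or GCGTG read on either strand. Ldha and Pgk1, both higher in E5.5 Epi than in E4.0 ICM, hold 5 and 2 ACGTG. The Ldha window is that of its upstream start, and the window of the other start, chr7:46846832-46847131, holds no ACGTG. Slc16a1 and Slc16a3, the lactate carriers, hold 3 and 2. Fbp2, a gene of the blastocyst, holds 2, and Slc2a2, a carrier of the endoderm, holds none. In these counts a CACGTG, which reads the same on both strands, adds 1 ACGTG for each strand.
Ldha chr7:46845554-46845853 (plus strand): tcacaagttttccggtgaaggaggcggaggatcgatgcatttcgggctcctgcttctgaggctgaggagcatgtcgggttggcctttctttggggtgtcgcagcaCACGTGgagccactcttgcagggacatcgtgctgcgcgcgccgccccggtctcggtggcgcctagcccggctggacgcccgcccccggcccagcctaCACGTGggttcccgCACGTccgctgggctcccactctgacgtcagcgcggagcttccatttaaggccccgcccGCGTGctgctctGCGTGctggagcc
Pgk1 chrX:106186850-106187149 (plus strand): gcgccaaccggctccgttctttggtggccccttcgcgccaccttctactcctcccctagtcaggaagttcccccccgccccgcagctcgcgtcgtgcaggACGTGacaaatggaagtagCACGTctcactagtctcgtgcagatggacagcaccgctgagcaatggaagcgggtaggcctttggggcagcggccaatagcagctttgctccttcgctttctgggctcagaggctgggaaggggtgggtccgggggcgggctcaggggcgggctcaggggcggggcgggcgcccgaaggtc
Slc16a3 chr11:120948817-120949116 (plus strand): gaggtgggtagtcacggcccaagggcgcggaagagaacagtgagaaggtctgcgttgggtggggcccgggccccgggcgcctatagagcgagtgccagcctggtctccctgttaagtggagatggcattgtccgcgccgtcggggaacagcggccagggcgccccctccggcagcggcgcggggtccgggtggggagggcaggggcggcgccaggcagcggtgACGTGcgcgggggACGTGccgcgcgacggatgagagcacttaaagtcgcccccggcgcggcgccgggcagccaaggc
Slc16a1 chr3:104638414-104638713 (plus strand): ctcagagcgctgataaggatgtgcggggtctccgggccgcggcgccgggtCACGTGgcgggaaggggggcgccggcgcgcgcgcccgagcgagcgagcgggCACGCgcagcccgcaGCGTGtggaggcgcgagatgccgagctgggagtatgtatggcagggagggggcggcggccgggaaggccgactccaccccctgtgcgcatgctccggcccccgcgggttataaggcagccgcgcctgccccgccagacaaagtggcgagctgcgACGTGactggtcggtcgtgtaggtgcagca
Slc2a2 chr3:28697653-28697952 (plus strand): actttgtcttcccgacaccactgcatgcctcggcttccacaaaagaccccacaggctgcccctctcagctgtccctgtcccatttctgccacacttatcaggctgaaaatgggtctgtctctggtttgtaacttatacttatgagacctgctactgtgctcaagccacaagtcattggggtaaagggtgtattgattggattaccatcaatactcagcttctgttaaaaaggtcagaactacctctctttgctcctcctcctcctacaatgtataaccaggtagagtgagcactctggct
Fbp2 chr13:62858351-62858650 (minus strand): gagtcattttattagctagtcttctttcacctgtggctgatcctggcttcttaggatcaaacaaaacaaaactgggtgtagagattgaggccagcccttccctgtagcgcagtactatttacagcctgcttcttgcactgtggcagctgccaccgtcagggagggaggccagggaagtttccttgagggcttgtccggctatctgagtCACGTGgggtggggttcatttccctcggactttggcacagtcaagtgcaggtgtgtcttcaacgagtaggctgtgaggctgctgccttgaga

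The 3 glucose carriers split by tissue. Slc2a3, which encodes the high-affinity carrier GLUT3, had 70.9 and 62.9 FPKM in E6.5 Epi, against 1164 and 1419 in E6.5 VE. Both VE libraries lay above both Epi libraries, and Epi over VE had log2 fold -4.25 with SE 0.67, limma adjusted p = 8.09e-05. At E5.5 the levels were 64.0 and 7.64 FPKM in Epi and 278 and 175 in VE (log2 fold -3.22 with SE 0.67, limma adjusted p = 0.00062, the fold being -1.77 without E5.5 epiblast replicate 2). The E5.5 VE libraries were both higher, although the Epi libraries lay far apart. Slc2a3 was higher still in E7.5 End, at 2018 and 1834 FPKM, against 108 and 83.5 in E7.5 Mes (log2 fold 4.32 with SE 0.67, limma adjusted p = 6.65e-05). Across the 11 uncultured tissues the order of means ran E7.5 End, E6.5 VE, E7.5 Ect and then E7.5 PS, E5.5 VE, E3.5 TE, E4.0 ICM and E7.5 Mes. From E7.5 PS to E7.5 Mes the libraries of neighbours in this order overlapped.

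Slc2a3 also differed within the blastocyst and in the E7.5 Ect, less firmly. Its level was 44.9 and 24.5 FPKM in E3.5 ICM and 119.6 and 223 in E3.5 TE (log2 fold -2.26 with SE 0.67, limma adjusted p = 0.0195), but the call ended with no filter on low values, without E3.5 inner cell mass replicate 2 and without E3.5 trophectoderm replicate 2 (log2 fold -1.82 to -2.26, limma adjusted p = 0.0513 to 0.184). In E6.5 VE it rose over E5.5 VE (log2 fold 2.54 with SE 0.67, limma adjusted p = 0.00696), and the call ended without E5.5 visceral endoderm replicate 2 and without E6.5 visceral endoderm replicate 2 (log2 fold 2.20 to 2.40, limma adjusted p = 0.0555 to 0.0574). E5.5 Epi was lower than E4.0 ICM, which had 155 and 76.5 FPKM (log2 fold -2.21 with SE 0.67, limma adjusted p = 0.0217, the fold being -3.67 without E5.5 epiblast replicate 1), and the call ended with no filter on low values, without E4.0 inner cell mass replicate 1 and without E5.5 epiblast replicate 2 (log2 fold -0.76 to -2.21, limma adjusted p = 0.0619 to 0.498). Ect had 506 and 422 FPKM at E7.5, above both E6.5 Epi libraries (log2 fold 2.77 with SE 0.67, limma adjusted p = 0.0394), and this call ended whichever of the 4 libraries was left out (limma adjusted p = 0.0983 to 0.281), as well as with a pseudocount of 0.1 (0.0726) or no filter on low values (0.102).

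Slc2a2, which encodes GLUT2, the low-affinity carrier known from liver and yolk sac, was read in endoderm layers and hardly elsewhere. It was listed at 0 in both libraries of E3.5 ICM, E3.5 TE, E4.0 ICM, E5.5 Epi and E7.5 PS. VE had 17.6 and 17.3 FPKM at E6.5, against 1.31 and 5.22 at E5.5, and E6.5 VE rose over E5.5 VE (log2 fold 2.28 with SE 0.42, limma adjusted p = 0.000556). At E6.5 Epi had 0 and 0.0892 FPKM, against 17.6 and 17.3 in VE, and Epi over VE had log2 fold -4.14 with SE 0.42, limma adjusted p = 3.73e-07, the fold being -7.00 with a pseudocount of 0.1. E7.5 End reached 136 and 103 FPKM, against 0.0853 and 0 in E7.5 Mes (log2 fold 6.84 with SE 0.42, limma adjusted p = 1.2e-10). It was the 1 member that rose in E7.5 End over E6.5 VE (log2 fold 2.70 with SE 0.42, limma adjusted p = 0.000188). The levels in endoderm thus stepped up at each age, with no overlap between E5.5 VE, E6.5 VE and E7.5 End, and every other uncultured tissue stayed under 0.1 FPKM. After 4 days of culture it was listed at 0 in Epi, against 0.519 and 4.64 FPKM in VE (limma adjusted p = 0.00795), a call that ended when fitted on its own table and without cultured VE replicate 2 (limma adjusted p = 0.258 to 0.266).

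Slc2a1, the widely expressed carrier GLUT1, was present in every tissue and was called in none of the 15 comparisons. Its mean was 24.9 ± 0.843 FPKM in E3.5 ICM and 14.1 ± 7.71 in E3.5 TE, 431 ± 31.2 in E6.5 Epi and 263 ± 5.84 in E6.5 VE, and 1099 ± 165 in E7.5 Ect. In E5.5 Epi its libraries read 288 and 79.8 FPKM, and after 2 days of culture 383 and 46.2. All 15 groups share 1 estimate of its spread, so these gaps limit every test of Slc2a1. The lack of a call does not show a steady level. The makeup of the family differed between tissues. Slc2a1 took 86.5% and 86.7% of the summed Slc2a1, Slc2a2 and Slc2a3 FPKM in the libraries of E6.5 Epi and 18.0% and 15.7% in those of E6.5 VE. In E3.5 ICM it took 36.2% and 49.8%, and in E3.5 TE 6.76% and 8.07%.

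Hexokinase traps glucose as glucose 6-phosphate. Hk2, the form linked to fast glycolysis, was lower in E3.5 ICM, at 5.63 and 6.49 FPKM, than in E3.5 TE, at 34.7 and 23.7 (log2 fold -2.08 with SE 0.33, limma adjusted p = 0.000105). It rose in E4.0 ICM to 22.3 and 20.5 FPKM (log2 fold 1.67 with SE 0.33, limma adjusted p = 0.000976) and was called in no later uncultured comparison. Hk2 was the main hexokinase in all 11 tissues, with 79.0% or more of the family in every library. Hk1, the form of most adult tissues, stayed under 5 FPKM in these tissues, and Hk3 was read in single libraries at under 0.05 FPKM. In E5.5 Epi Hk1 had 4.90 and 1.96 FPKM, against 0.967 and 0.341 in E5.5 VE (log2 fold 1.36 with SE 0.42, limma adjusted p = 0.0123, the fold being 2.23 with a pseudocount of 0.1), and the call ended without E5.5 epiblast replicate 1 and without E5.5 visceral endoderm replicate 2 (log2 fold 0.87 to 1.09, limma adjusted p = 0.11 to 0.19).

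**Figure D3:**
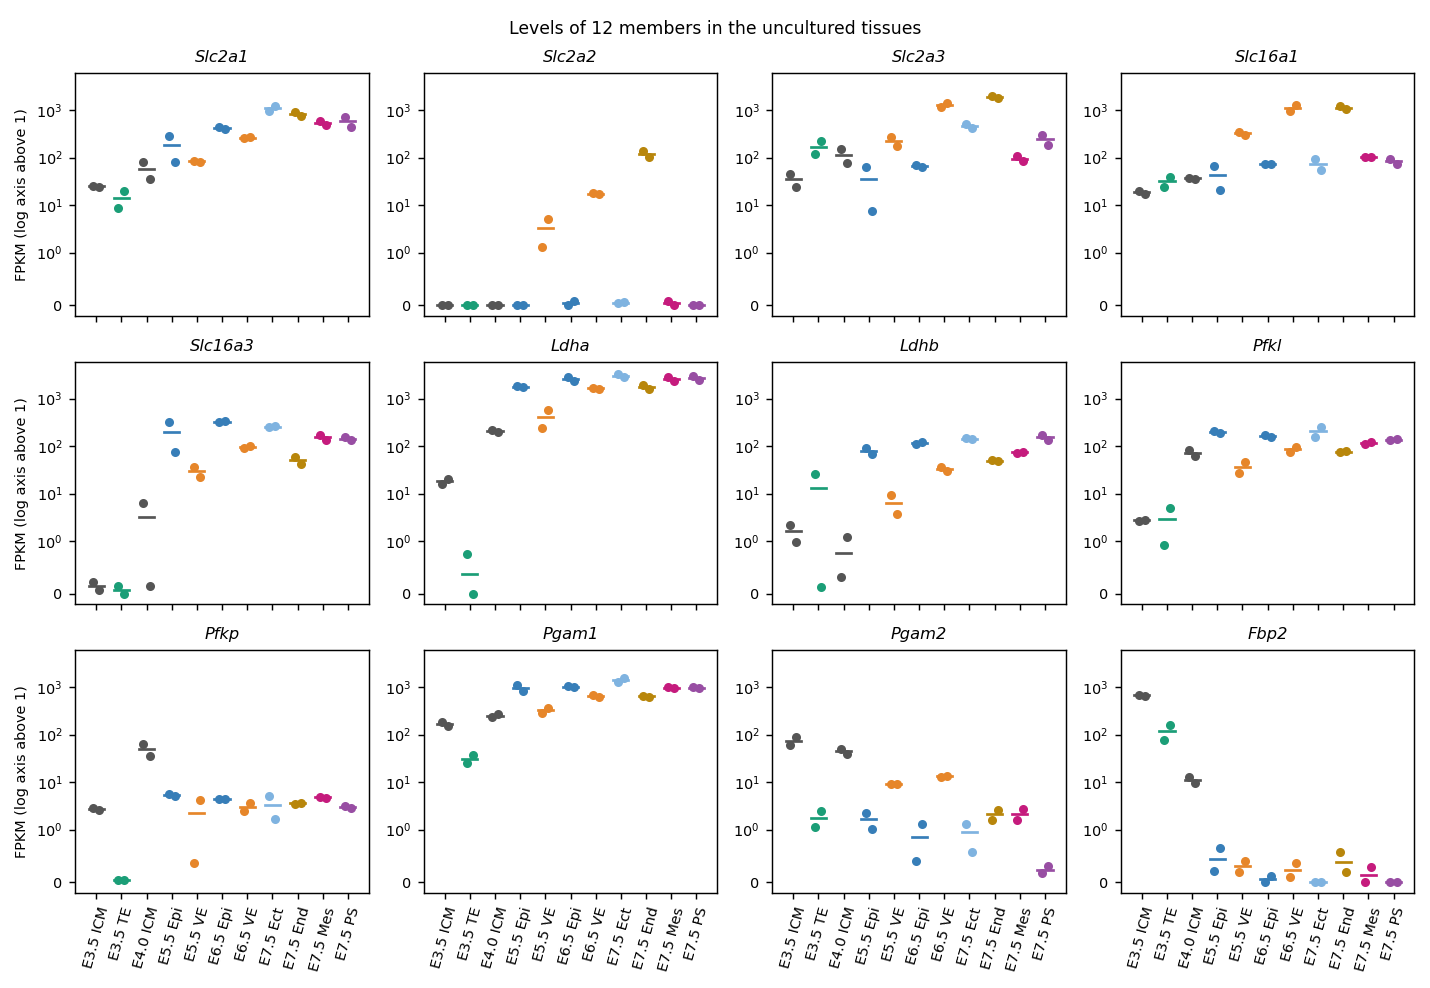
FPKM of 12 members in the 2 libraries (points) and their mean (line) in each of the 11 uncultured tissues, on an axis that is logarithmic above 1 and linear below. Slc2a2, Slc2a3 and Slc16a1 stand highest in E6.5 VE and E7.5 End. Ldha and Pfkl climb between E3.5 and E5.5, and Pfkp peaks in E4.0 ICM. Fbp2 falls from E3.5 to E4.0 ICM and again to E5.5 Epi, and Pgam2 falls away after E4.0 in Epi.

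Phosphofructokinase makes the first step that commits glucose to glycolysis, and all 3 of its genes rose in the ICM between E3.5 and E4.0. Pfkl, the liver form, had 82.4 and 62.4 FPKM at E4.0, against 2.66 and 2.79 at E3.5 (log2 fold 4.29 with SE 0.38, limma adjusted p = 7.78e-08). Pfkp, the platelet form, had 62.7 and 34.8 FPKM, against 2.88 and 2.65 (log2 fold 3.67 with SE 0.51, limma adjusted p = 2.93e-05). Pfkm, the muscle form, had 4.32 and 8.26 FPKM, against 0.605 and 0.538 (log2 fold 2.16 with SE 0.43, limma adjusted p = 0.000966). None of the 3 pairs overlapped. After E4.0 their paths parted, since Pfkp fell to 5.70 and 5.20 FPKM in E5.5 Epi (log2 fold -2.89 with SE 0.51, limma adjusted p = 0.000317) and to 0.359 and 4.17 in E5.5 VE (log2 fold -4.17 with SE 0.51, limma adjusted p = 2.88e-06).

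Pfkl rose and took most of the family. It had 213 and 187 FPKM in E5.5 Epi and 26.9 and 47.4 in E5.5 VE (log2 fold 2.45 with SE 0.38, limma adjusted p = 3.8e-05, the fold being 1.63 after quantile normalization). Over E4.0 ICM its log2 fold in E5.5 Epi was 1.46 (limma adjusted p = 0.00811), and the call ended without E4.0 inner cell mass replicate 2 and without E5.5 epiblast replicate 1 (log2 fold 1.27 to 1.37, limma adjusted p = 0.064 to 0.0868). The share of Pfkl in the family was 93.3% and 93.0% in the E5.5 Epi libraries and 55.2% and 59.2% in those of E4.0 ICM. Pfkm was higher in Epi than in VE at E5.5, at 9.50 and 8.89 against 1.52 and 2.75 FPKM (log2 fold 1.73 with SE 0.43, limma adjusted p = 0.00271). E6.5 VE had 77.0 and 94.3 FPKM of Pfkl and was called over E5.5 VE (log2 fold 1.23 with SE 0.38, limma adjusted p = 0.0181), and the call ended after quantile normalization, without E5.5 visceral endoderm replicate 1 and without E6.5 visceral endoderm replicate 2 (log2 fold 0.22 to 1.08, limma adjusted p = 0.125 to 0.812). In E3.5 TE the Pfkl libraries read 0.930 and 5.06 FPKM and the Pfkp libraries 0.0472 and 0.0366. Pfkp was called higher in E3.5 ICM than in E3.5 TE (log2 fold 1.85 with SE 0.51, limma adjusted p = 0.0132, the fold being 4.33 with a pseudocount of 0.1), but the call ended without E3.5 inner cell mass replicate 1, without E3.5 inner cell mass replicate 2 and without E3.5 trophectoderm replicate 1 (log2 fold 1.81 to 1.90, limma adjusted p = 0.0656 to 0.0821).

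The Pfkfb genes encode enzymes that make and break fructose 2,6-bisphosphate, the strongest activator of phosphofructokinase, and they changed over between forms. Pfkfb2 had 0.486 and 0 FPKM in E5.5 Epi, against 6.60 and 10.9 in E4.0 ICM (log2 fold -2.96 with SE 0.37, limma adjusted p = 5.82e-06, the fold being -5.15 with a pseudocount of 0.1). Pfkfb3, the form with the highest kinase activity, had 9.03 and 6.25 FPKM in E5.5 Epi, against 0.270 and 0.125 in E4.0 ICM (log2 fold 2.83 with SE 0.44, limma adjusted p = 8.16e-05, the fold being 4.72 with a pseudocount of 0.1). The first form fell as the other rose, with no overlap of libraries in either. Pfkfb3 was also higher in Epi than in E5.5 VE, which read 1.24 and 0.656 FPKM (log2 fold 2.14 with SE 0.44, limma adjusted p = 0.000596). Pfkfb2 was lower in Epi than in E5.5 VE, at 1.92 and 2.49 FPKM (log2 fold -1.39 with SE 0.37, limma adjusted p = 0.00455, the fold being -3.24 with a pseudocount of 0.1), and the call ended without E5.5 epiblast replicate 2 (log2 fold -1.10, limma adjusted p = 0.0624). Pfkfb2 kept that side at E6.5, with 0.293 and 0.215 FPKM in Epi and 2.26 and 2.79 in VE (log2 fold -1.49 with SE 0.37, limma adjusted p = 0.00579, the fold being -2.89 with a pseudocount of 0.1), and the call ended without E6.5 visceral endoderm replicate 2 (log2 fold -1.38, limma adjusted p = 0.0653). Pfkfb4 was higher in E3.5 ICM, at 2.34 and 1.61 FPKM, than in E3.5 TE, at 0.0272 and 0.0218 (log2 fold 1.53 with SE 0.33, limma adjusted p = 0.00232, the fold being 4.04 with a pseudocount of 0.1). Pfkfb1 had 2.24 and 0.597 FPKM in E4.0 ICM, against 7.43 and 8.29 in E3.5 ICM (log2 fold -1.96 with SE 0.60, limma adjusted p = 0.0207), and the call ended without E3.5 inner cell mass replicate 1, without E3.5 inner cell mass replicate 2 and without E4.0 inner cell mass replicate 2 (log2 fold -1.45 to -2.03, limma adjusted p = 0.0814 to 0.203), and it ranged from 0.597 to 9.88 FPKM in the uncultured libraries.

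The enzymes of the glycolytic chain itself, from glucose phosphate isomerase to pyruvate kinase, formed a list of 16 genes with 15 tested, the phosphofructokinases among them. In E4.0 ICM over E3.5 ICM 9 were called higher and 0 lower, with a median log2 fold of 1.39 and 0.27 for all genes, 15.8% of all genes being higher and 4.80% lower. In E5.5 Epi over E4.0 ICM 8 were higher and 2 lower, 8.67% of all genes being higher and 8.94% lower. In E5.5 Epi over E5.5 VE 11 were higher and 0 lower, 27.1% of all genes being higher and 9.60% lower. After quantile normalization the last count was 8 higher and 1 lower. In E6.5 VE over E5.5 VE 4 of 15 were higher and 0 lower, near the share of all genes, 24.7% of all genes being higher and 2.49% lower. After quantile normalization 1 was higher, Eno1, and 1 lower, Pgk1. Several of these genes (Gapdh, Pgk1, Eno1, Tpi1, Aldoa, Pgam1, Pkm, Ldha) have near-identical processed copies in the mouse genome, so reads may have been shared with copies and their levels are uncertain to that extent. The forms of Pkm made by splicing were not separated.

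Pkm, pyruvate kinase of embryo and muscle, had 361 and 338 FPKM in E4.0 ICM, against 109 and 92.9 in E3.5 ICM (log2 fold 1.79 with SE 0.35, limma adjusted p = 0.000966). In E5.5 Epi it had 1165 and 1094 FPKM, against E4.0 ICM (log2 fold 1.69 with SE 0.35, limma adjusted p = 0.00151) and against 290.3 and 352 FPKM in E5.5 VE (log2 fold 1.82 with SE 0.35, limma adjusted p = 0.000349). At each of these steps the libraries did not overlap. Pkm in E3.5 ICM was also called over E3.5 TE, at 17.0 and 53.4 FPKM (log2 fold 1.70 with SE 0.35, limma adjusted p = 0.0015), but the call ended without E3.5 trophectoderm replicate 1 (log2 fold 0.90, limma adjusted p = 0.0609). E6.5 VE had 748 and 807 FPKM of Pkm and was called over E5.5 VE (log2 fold 1.28 with SE 0.35, limma adjusted p = 0.00945), and the call ended after quantile normalization, without E5.5 visceral endoderm replicate 1 and without E6.5 visceral endoderm replicate 2 (log2 fold 0.94 to 1.23, limma adjusted p = 0.04 to 0.0861). Gapdh, which makes NADH in the middle of the pathway, had 231 and 288 FPKM in E4.0 ICM, against 82.2 and 95.2 in E3.5 ICM (log2 fold 1.53 with SE 0.34, limma adjusted p = 0.0024), and was not called between Epi and VE at E5.5 or E6.5.

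Tpi1 and Pgk1 were called in the ICM as well, before the step to E5.5. Tpi1 had 127 and 102 FPKM in E4.0 ICM, against 38.4 and 52.4 in E3.5 ICM (log2 fold 1.32 with SE 0.32, limma adjusted p = 0.00442), and the call ended without E3.5 inner cell mass replicate 1 (log2 fold 1.10, limma adjusted p = 0.0664). Pgk1 had 36.7 and 55.8 FPKM in E4.0 ICM, against 15.2 and 18.3 in E3.5 ICM (log2 fold 1.39 with SE 0.30, limma adjusted p = 0.00206), and the call ended after quantile normalization (log2 fold 0.92, limma adjusted p = 0.0136). In E5.5 Epi over E4.0 ICM, Aldoa, Tpi1, Pgk1 and Pgam1 were all called higher. Aldoa, the aldolase that splits the phosphorylated sugar, had 1727 and 1867 FPKM in E5.5 Epi, against 486 and 277 in E4.0 ICM (log2 fold 2.29 with SE 0.27, limma adjusted p = 3.15e-06) and 305 and 584 in E5.5 VE (log2 fold 2.09 with SE 0.27, limma adjusted p = 6.08e-06). Pgk1, the first enzyme of the chain to make ATP, had 290.3 and 155 FPKM in E5.5 Epi, against 36.7 and 55.8 in E4.0 ICM (log2 fold 2.21 with SE 0.30, limma adjusted p = 1.74e-05). It also rose in E5.5 VE, at 251 and 232 FPKM over the same E4.0 ICM (log2 fold 2.39 with SE 0.30, limma adjusted p = 3.93e-06), and was not called between Epi and VE at E5.5 (log2 fold -0.18, SE 0.30). Gpi1, which converts glucose 6-phosphate to fructose 6-phosphate, had 98.0 and 84.5 FPKM in E5.5 Epi, against 29.4 and 29.7 in E4.0 ICM (log2 fold 1.59 with SE 0.34, limma adjusted p = 0.00196).

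Tpi1, which interconverts the triose phosphates, was lower in ICM than in TE. It had 38.4 and 52.4 FPKM in E3.5 ICM, against 183 and 258 in E3.5 TE (log2 fold -2.25 with SE 0.32, limma adjusted p = 2.52e-05). By E5.5 it had 702 and 648 FPKM in Epi, against 127 and 102 in E4.0 ICM (log2 fold 2.56 with SE 0.32, limma adjusted p = 5.63e-06). Pgk1 was called on the same side in the blastocyst, with 15.2 and 18.3 FPKM in ICM and 36.7 and 34.7 in TE (log2 fold -1.05 with SE 0.30, limma adjusted p = 0.0162), but the call ended without E3.5 inner cell mass replicate 1 and without E3.5 trophectoderm replicate 1 (log2 fold -0.93 to -1.02, limma adjusted p = 0.0867 to 0.13). Of the 15 tested core enzymes, 4 were higher and 3 lower in E3.5 ICM than in E3.5 TE, 9.54% of all genes being higher and 7.75% lower.

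The phosphoglycerate mutases both separated ICM from TE. Pgam1, the common form, had 186 and 155 FPKM in E3.5 ICM, against 25.7 and 36.6 in E3.5 TE (log2 fold 2.43 with SE 0.21, limma adjusted p = 4.64e-08). Pgam2, the muscle form, had 59.3 and 88.2 FPKM in E3.5 ICM, against 1.13 and 2.43 in E3.5 TE (log2 fold 4.76 with SE 0.81, limma adjusted p = 0.000209). Both ICM libraries lay far above both TE libraries in each gene. Pgam2 fell to 2.23 and 1.05 FPKM in E5.5 Epi, against 49.0 and 40.02 in E4.0 ICM (log2 fold -4.14 with SE 0.81, limma adjusted p = 0.0008), while Pgam1 had 1099.5 and 824 in E5.5 Epi, against 235 and 266 in E4.0 ICM (log2 fold 1.93 with SE 0.21, limma adjusted p = 1.54e-06). E5.5 VE read 8.98 and 9.31 FPKM of Pgam2. E6.5 Epi had 0.415 and 1.29 FPKM, against 13.0 and 13.4 in E6.5 VE, and was called lower (log2 fold -2.98 with SE 0.81, limma adjusted p = 0.0111), but the call ended with a pseudocount of 0.1, without E6.5 epiblast replicate 1, without E6.5 visceral endoderm replicate 1 and without E6.5 visceral endoderm replicate 2 (log2 fold -2.63 to -3.97, limma adjusted p = 0.058 to 0.107). Pgam1 had 693 and 623 FPKM in E6.5 VE, against 281 and 369 in E5.5 VE (log2 fold 1.03 with SE 0.21, limma adjusted p = 0.00141), and the call ended after quantile normalization, without E5.5 visceral endoderm replicate 1 and without E6.5 visceral endoderm replicate 1 (log2 fold 0.61 to 0.95, limma adjusted p = 0.0196 to 0.0344).

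Aldoc and Eno3 set Epi apart from VE. Eno3, the muscle enolase, had 10.4 and 14.3 FPKM in E5.5 Epi, against 1.20 and 0.353 in E5.5 VE (log2 fold 2.93 with SE 0.51, limma adjusted p = 0.00013), and 14.3 and 14.8 in E6.5 Epi, against 2.16 and 0.577 in E6.5 VE (log2 fold 2.80 with SE 0.51, limma adjusted p = 0.000421). Aldoc, the brain aldolase, had 7.95 and 6.23 FPKM in E6.5 Epi, against 0.747 and 0.491 in E6.5 VE (log2 fold 2.32 with SE 0.49, limma adjusted p = 0.00171). All Epi libraries lay above all VE libraries of the same age in both genes. Aldoc at E5.5 had 9.52 and 3.58 FPKM in Epi and 0.588 and 0.751 in VE (log2 fold 2.06 with SE 0.49, limma adjusted p = 0.00218), and the call ended without E5.5 epiblast replicate 1 (log2 fold 1.46, limma adjusted p = 0.059). E5.5 VE was also called lower than E4.0 ICM, which had 10.0 and 6.79 FPKM of Aldoc (log2 fold -2.48 with SE 0.49, limma adjusted p = 0.000483). Aldoc in E4.0 ICM was called over E3.5 ICM, which had 1.40 and 1.66 FPKM (log2 fold 1.88 with SE 0.49, limma adjusted p = 0.00852), and the call ended with a pseudocount of 0.1, without E3.5 inner cell mass replicate 1 and without E4.0 inner cell mass replicate 1 (log2 fold 1.63 to 2.37, limma adjusted p = 0.0604 to 0.133). Beside Aldoa the amount of Aldoc was small, at 0.535% and 0.459% of aldolase FPKM in the E6.5 Epi libraries. Eno3 was a larger part of enolase FPKM in Epi, as the Eno1 levels below show.

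Eno1, the common enolase, was low in one tissue of the egg cylinder. It read 2.67 and 0.905 FPKM in E5.5 VE, against 15.3 and 14.5 in E4.0 ICM (log2 fold -2.59 with SE 0.57, limma adjusted p = 0.00118), and 52.8 and 47.3 in E6.5 VE, against E5.5 VE (log2 fold 4.27 with SE 0.57, limma adjusted p = 6.78e-05). E5.5 Epi had 64.7 and 19.1 FPKM and was higher than E5.5 VE (log2 fold 3.78 with SE 0.57, limma adjusted p = 3.11e-05). At E6.5 Epi had 47.4 and 104 FPKM, with no call against VE (log2 fold 0.49, limma adjusted p = 0.645). Among the E4.0 to E6.5 levels given here, the VE value at E5.5 was the low point, with both libraries under 3 FPKM. E3.5 ICM also lay below E4.0 ICM (log2 fold 1.95 for E4.0 over E3.5, called), and E5.5 VE was not compared with E3.5 ICM. That call ended after quantile normalization (log2 fold 1.43, limma adjusted p = 0.0888). It also ended without E3.5 inner cell mass replicate 1 or either E4.0 library (log2 fold 1.64 to 1.99). Pklr, pyruvate kinase of liver and red cells, was read at 1.46 and 1.69 FPKM in E7.5 End, against 0.0822 and 0 in E7.5 Mes (log2 fold 1.31 with SE 0.16, limma adjusted p = 2.92e-06, the fold being 3.63 with a pseudocount of 0.1), and the call ended after quantile normalization, where the log2 fold was 0.997, under the minimum of 1 (limma adjusted p = 7.49e-05). It stood beside Pkm at 767 and 677 FPKM in the same E7.5 End libraries.

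Of the lactate dehydrogenases, Ldha climbed in steps. Ldha, the form that favours lactate, read 15.6 and 20.7 FPKM in E3.5 ICM, against 0.763 and 1.31e-05 in E3.5 TE (log2 fold 3.84 with SE 0.34, limma adjusted p = 4.76e-08, the fold being 5.95 with a pseudocount of 0.1). E4.0 ICM had 218 and 200.02 FPKM, against E3.5 ICM (log2 fold 3.46 with SE 0.34, limma adjusted p = 2.85e-07), and E5.5 Epi had 1858 and 1747, against E4.0 ICM (log2 fold 3.10 with SE 0.34, limma adjusted p = 1.29e-06). Each of these groups lay wholly above the one before. E5.5 VE had 247 and 578 FPKM, below E5.5 Epi (log2 fold 2.25 with SE 0.34, limma adjusted p = 2.88e-05 for Epi over VE), and E6.5 VE had 1697 and 1586 (log2 fold 2.11 with SE 0.34, limma adjusted p = 0.000216 over E5.5 VE). At E6.5 Epi read 2912 and 2325 FPKM, against those E6.5 VE levels, and was not called (log2 fold 0.67, SE 0.34). The highest level was 3241 and 2842 FPKM in E7.5 Ect, which overlapped E7.5 PS and E6.5 Epi. Aldoa reached a like level in E5.5 Epi, at 1727 and 1867.

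Ldhb, the form that favours pyruvate, had 91.0 and 68.4 FPKM in E5.5 Epi, against 0.330 and 1.22 in E4.0 ICM (log2 fold 5.54 with SE 1.07, limma adjusted p = 0.000741), and was called over E5.5 VE, at 9.28 and 3.73 FPKM (log2 fold 3.52 with SE 1.07, limma adjusted p = 0.0117), but the call ended without E5.5 epiblast replicate 1 and without E5.5 visceral endoderm replicate 2 (log2 fold 2.96 to 3.31, limma adjusted p = 0.0682 to 0.0914). In E3.5 TE its libraries differed widely, at 26.1 and 0.129 FPKM. Ldhb took 12.5% and 4.54% of lactate dehydrogenase FPKM in the E3.5 ICM libraries and 96.9% and 100.0% in those of E3.5 TE. The 100.0% is a share of almost nothing, since that library read 0.129 FPKM of Ldhb and 1.31e-05 of Ldha. In E5.5 Epi Ldhb took 4.66% and 3.76%. Ldhc, the testis form, read 5.79 and 4.35 FPKM in E5.5 Epi and was called over E5.5 VE, where it is listed at 0 (limma adjusted p = 0.00045).

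Of the lactate carriers, Slc16a1 was lower in Epi than in VE at both ages. Slc16a1, which encodes MCT1, a carrier that moves lactate and pyruvate either way, had 66.3 and 20.7 FPKM in E5.5 Epi, against 353 and 297 in E5.5 VE (log2 fold -3.09 with SE 0.56, limma adjusted p = 0.000199). At E6.5 it had 74.6 and 74.5 FPKM in Epi, against 965 and 1282 in VE (log2 fold -3.88 with SE 0.56, limma adjusted p = 3.37e-05). E5.5 VE had risen over E4.0 ICM, which read 38.2 and 35.4 FPKM (log2 fold 3.10 with SE 0.56, limma adjusted p = 0.000207). The VE libraries were above every Epi and ICM library. In E7.5 End the level was 1235 and 1037 FPKM, against 103 and 104 in E7.5 Mes (log2 fold 3.44 with SE 0.56, limma adjusted p = 0.00014), and E7.5 End and E6.5 VE overlapped. E6.5 VE over E5.5 VE was called (log2 fold 1.78 with SE 0.56, limma adjusted p = 0.0211), but the call ended with no filter on low values, after quantile normalization, without E5.5 visceral endoderm replicate 1, without E5.5 visceral endoderm replicate 2, without E6.5 visceral endoderm replicate 1 and without E6.5 visceral endoderm replicate 2 (log2 fold 1.49 to 1.98, limma adjusted p = 0.0546 to 0.136).

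Slc16a3, which encodes MCT4, an exporter known from glycolytic tissues, read 317 and 75.5 FPKM in E5.5 Epi, against 6.29 and 0.160 in E4.0 ICM (log2 fold 5.75 with SE 0.84, limma adjusted p = 3.98e-05). Both Epi libraries stood above both ICM libraries, although the Epi libraries lay far apart. E5.5 VE had 37.1 and 22.6 FPKM, and Epi over VE was called (log2 fold 2.38 with SE 0.84, limma adjusted p = 0.0274), but the call ended with a pseudocount of 0.1, with no filter on low values, after quantile normalization, without E5.5 epiblast replicate 1, without E5.5 visceral endoderm replicate 1 and without E5.5 visceral endoderm replicate 2 (log2 fold 1.35 to 2.73, limma adjusted p = 0.0561 to 0.322). E5.5 VE was also called over E4.0 ICM (log2 fold 3.37 with SE 0.84, limma adjusted p = 0.00318), and the call ended without E4.0 inner cell mass replicate 2 (log2 fold 2.04, limma adjusted p = 0.103). At E6.5 the levels were 319 and 332 FPKM in Epi and 93.5 and 101 in VE, with no call (log2 fold 1.73, limma adjusted p = 0.17), although the libraries did not overlap. The spread used in that test came from all 15 groups, while the E6.5 replicates differed by -0.06 in Epi and -0.11 in VE on the log2 scale. This lack of a call does not show equal levels. Of the summed FPKM of both carriers, Slc16a1 took 18.9% and 18.3% in the E6.5 Epi libraries and 91.2% and 92.7% in those of E6.5 VE. In E7.5 Ect, End, Mes and PS its share was 27.4% and 17.3%, 95.5% and 96.0%, 37.2% and 43.9%, and 38.2% and 35.98%.

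**Figure D4:**
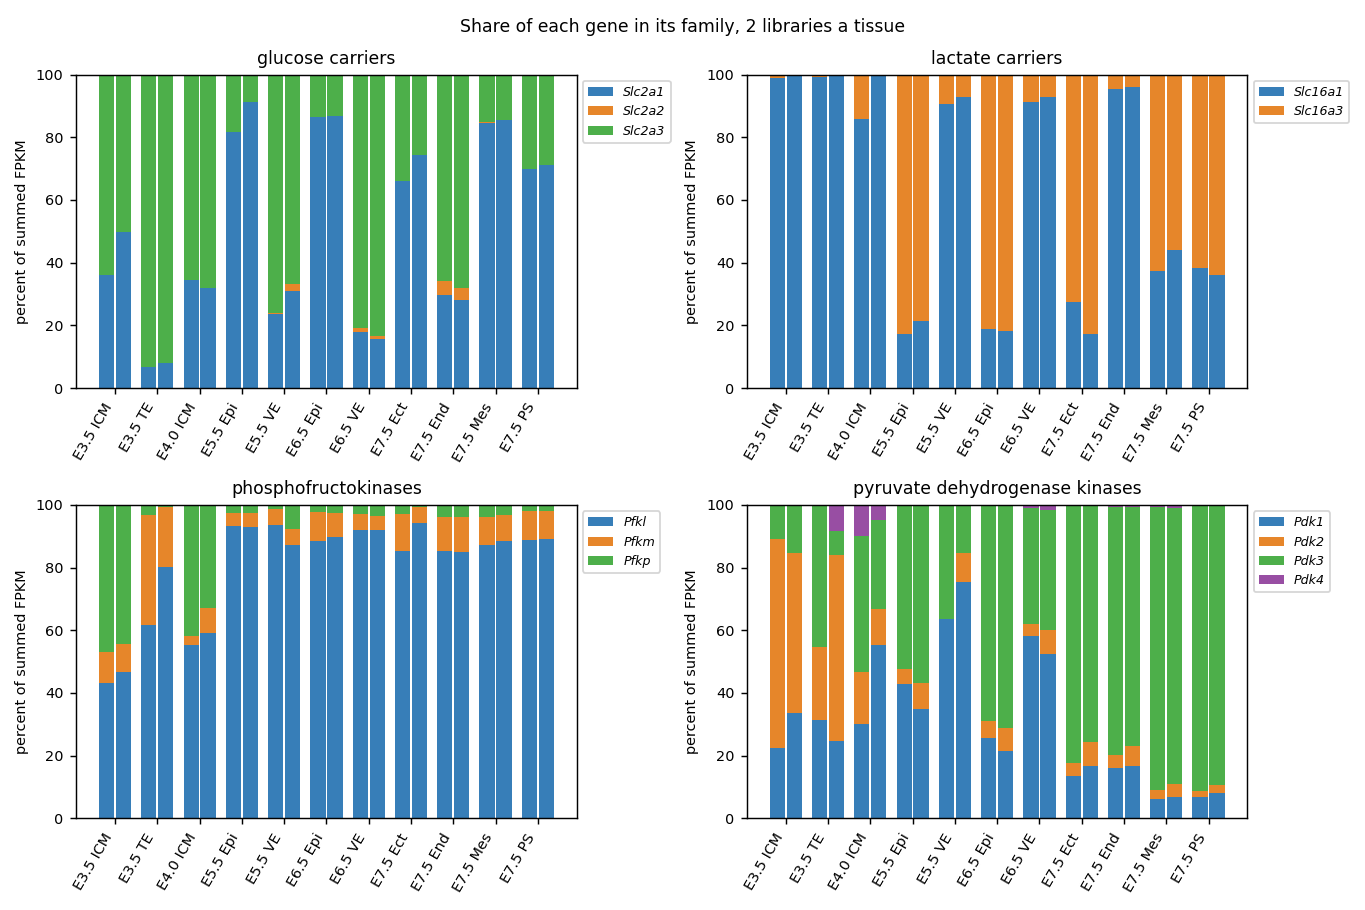
Percent of the summed FPKM of each gene family that each gene took, in the 2 libraries of each uncultured tissue (bars reach 100%). Slc2a3 and Slc16a1 fill most of the bars of VE and E7.5 End, Slc2a1 and Slc16a3 most of those of Epi, Pfkp takes its largest shares in ICM, and Pdk3 takes most of its family at E7.5.

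The pyruvate dehydrogenase kinases switch off the entry of pyruvate into the tricarboxylic acid cycle. Pdk3 had 36.7 and 28.1 FPKM in E5.5 Epi, against 2.70 and 1.63 in E5.5 VE (log2 fold 3.41 with SE 0.73, limma adjusted p = 0.000883). Pdk2 had 3.53 and 4.15 FPKM in E5.5 Epi, against 0 and 0.982 in E5.5 VE (log2 fold 1.78 with SE 0.40, limma adjusted p = 0.00134, the fold being 3.58 with a pseudocount of 0.1). Both Epi libraries were above both VE libraries in each. At E6.5 Pdk3 had 50.6 and 38.6 FPKM in Epi and 8.14 and 7.35 in VE (log2 fold 2.37 with SE 0.73, limma adjusted p = 0.0257), but the call ended with a pseudocount of 0.1, with no filter on low values, without E6.5 epiblast replicate 1, without E6.5 epiblast replicate 2, without E6.5 visceral endoderm replicate 1 and without E6.5 visceral endoderm replicate 2 (log2 fold 2.18 to 2.56, limma adjusted p = 0.0686 to 0.211). Against E4.0 ICM, which read 6.08 and 4.03 FPKM, Pdk3 was called higher in E5.5 Epi (log2 fold 2.47 with SE 0.73, limma adjusted p = 0.0197), and the call ended with a pseudocount of 0.1, with no filter on low values, without E4.0 inner cell mass replicate 1, without E4.0 inner cell mass replicate 2, without E5.5 epiblast replicate 1 and without E5.5 epiblast replicate 2 (log2 fold 2.23 to 2.72, limma adjusted p = 0.0521 to 0.16).

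The share of Pdk3 was 52.0% and 56.7% of the family's FPKM in the E5.5 Epi libraries, 68.7% and 71.1% in those of E6.5 Epi and 91.0% and 89.2% in those of E7.5 PS. In E3.5 ICM it took 10.52% and 15.2%, with Pdk2 at 66.6% and 51.1%. Pdk1, a known target of the hypoxia response, had 30.2 and 17.3 FPKM in E5.5 Epi and 4.72 and 7.97 in E5.5 VE, and was called (log2 fold 1.74 with SE 0.67, limma adjusted p = 0.0418), but the call ended with a pseudocount of 0.1, with no filter on low values, after quantile normalization, without E5.5 epiblast replicate 1, without E5.5 epiblast replicate 2, without E5.5 visceral endoderm replicate 1 and without E5.5 visceral endoderm replicate 2 (log2 fold 1.28 to 2.12, limma adjusted p = 0.0535 to 0.234).

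Among the genes of gluconeogenesis, Fbp2 was abundant at E3.5 and then almost gone. Fbp2 encodes the muscle form of fructose 1,6-bisphosphatase, the enzyme that reverses the phosphofructokinase step. It read 692 and 659 FPKM in E3.5 ICM, more than any other member in that tissue, and 77.6 and 159 in E3.5 TE. ICM over TE had log2 fold 2.59 with SE 0.57, limma adjusted p = 0.00271, and the call ended without E3.5 trophectoderm replicate 1 (log2 fold 2.08, limma adjusted p = 0.0578). E4.0 ICM had 13.0 and 9.58 FPKM, against E3.5 ICM (log2 fold -5.80 with SE 0.57, limma adjusted p = 3.62e-07). The level fell again to 0.222 and 0.655 FPKM in E5.5 Epi (log2 fold -3.10 with SE 0.57, limma adjusted p = 0.000507 over E4.0 ICM) and to 0.201 and 0.413 in E5.5 VE (log2 fold -3.22 with SE 0.57, limma adjusted p = 0.000174, the fold being -4.84 with a pseudocount of 0.1). Every later uncultured library read under 1 FPKM.

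Fbp1, the liver form, was read at a lower level. It had 4.79 and 6.69 FPKM in E3.5 ICM, against 1.09 and 0.657 in E3.5 TE (log2 fold 1.84 with SE 0.20, limma adjusted p = 6.59e-07), and 0.421 and 0.0546 in E4.0 ICM, against E3.5 ICM (log2 fold -2.45 with SE 0.20, limma adjusted p = 2.07e-08, the fold being -4.34 with a pseudocount of 0.1). Pck2, the mitochondrial phosphoenolpyruvate carboxykinase, moved otherwise. It had 28.0 and 24.96 FPKM in E4.0 ICM, against 2.50 and 1.43 in E3.5 ICM (log2 fold 3.24 with SE 0.58, limma adjusted p = 0.000386). E5.5 Epi read 16.6 and 19.5 FPKM, with no call over E4.0 ICM (log2 fold -0.53, SE 0.58), while E5.5 VE fell to 0.970 and 0.492 (log2 fold -4.00 with SE 0.58, limma adjusted p = 1.88e-05). Epi over VE at E5.5 had log2 fold 3.47 with SE 0.58, limma adjusted p = 7.75e-05. At E6.5 Pck2 had 14.0 and 14.4 FPKM in Epi, against 2.49 and 2.35 in VE (log2 fold 2.15 with SE 0.58, limma adjusted p = 0.0105), and the call ended with a pseudocount of 0.1, without E6.5 epiblast replicate 1, without E6.5 epiblast replicate 2, without E6.5 visceral endoderm replicate 1 and without E6.5 visceral endoderm replicate 2 (log2 fold 2.12 to 2.50, limma adjusted p = 0.0542 to 0.141). Pck1 and G6pc, the liver genes of the pathway, stayed under 1 FPKM in all 30 libraries.

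The difference between Epi and VE was itself compared between E6.5 and E5.5. Of the members, 0 were called higher and 2 lower, where 6.07% of all genes were called (0.793% higher and 5.28% lower). Eno1 had a log2 fold of Epi over VE of 0.49 at E6.5 and 3.78 at E5.5, a difference of -3.29 with SE 0.81 (limma adjusted p = 0.0248). Slc2a2 had -4.14 at E6.5, and at E5.5 it was listed at 0 in Epi, so no fold is given there. Its difference between ages had limma adjusted p = 0.0332. Each call ended in several settings (limma adjusted p = 0.0508 to 0.113 for Eno1 and 0.0591 to 0.2 for Slc2a2), among them leaving out any 1 of the E6.5 libraries or replicate 1 of either E5.5 tissue. The other 33 members, Slc2a3 and Slc16a1 among them, were not called, with 8 of 35 at an unadjusted p under 0.05. For Slc2a3 the difference was -1.02 with SE 0.94, and for Slc16a1 -0.79 with SE 0.80.

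**Figure D5:**
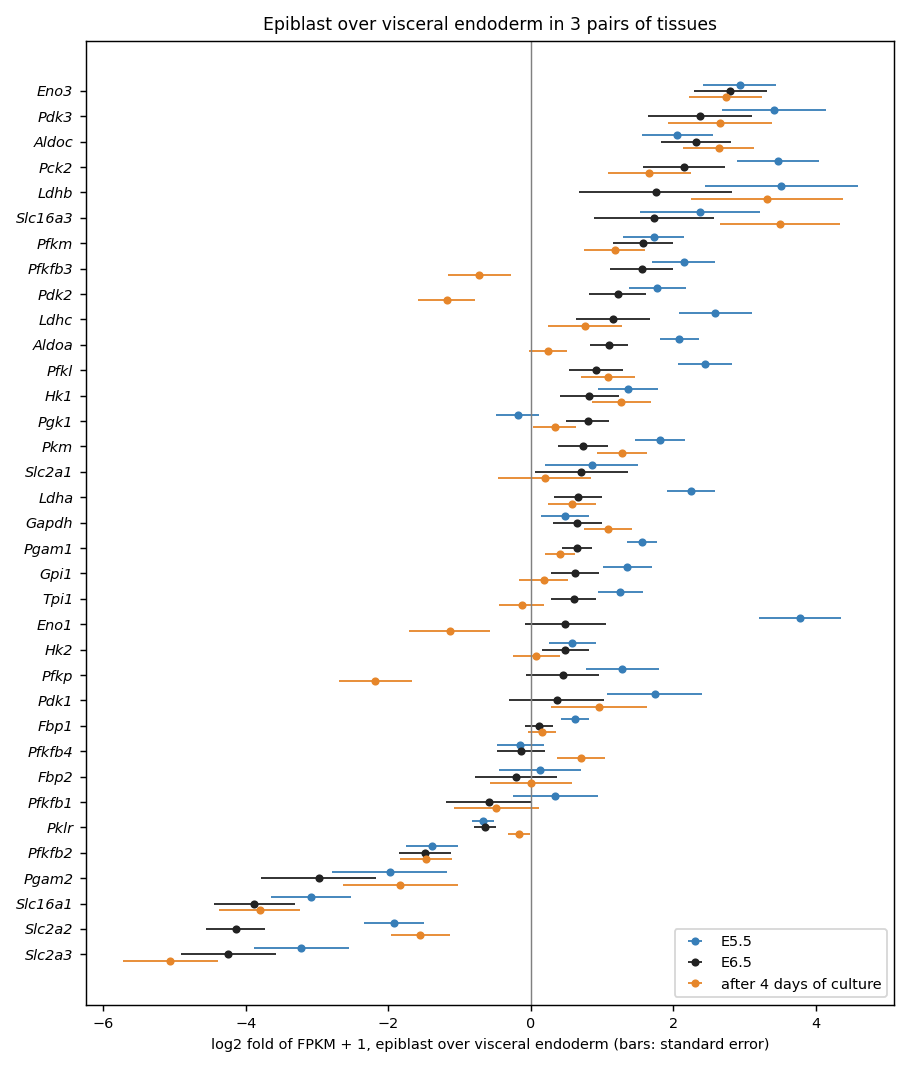
Log2 fold of FPKM + 1 of Epi over VE for the 35 tested members at E5.5, at E6.5 and after 4 days of culture, with standard errors as bars and genes in order of the E6.5 value. Slc2a3, Slc2a2 and Slc16a1 lie to the left of 0 in all 3 pairs of tissues and Eno3, Pdk3 and Aldoc to the right, while Eno1, Pfkp, Pfkfb3, Tpi1 and Pdk2 lie to the right at both ages and to the left after culture, and Pfkfb4 does the reverse.

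Epi and VE separated after 4 days of culture also differed in these genes. Here 17 of 35 members (48.6%) were called, 11 higher and 6 lower, against 24.5% of all genes (10.8% higher and 13.6% lower). With a pseudocount of 0.1 the count was 6 higher and 5 lower, and in a fit of these 4 libraries alone 3 higher and 3 lower. The count was 9 without Epi replicate 1, 10 without Epi replicate 2 and 9 without VE replicate 2. Slc2a3 had 19.0 and 13.7 FPKM in cultured Epi, against 464 and 707 in cultured VE (log2 fold -5.06 with SE 0.67, limma adjusted p = 9.11e-06). Slc16a1 had 20.6 and 24.4 FPKM, against 376 and 284 (log2 fold -3.81 with SE 0.56, limma adjusted p = 3.56e-05). Aldoc had 7.78 and 6.499 FPKM, against 0.706 and 0 (log2 fold 2.64 with SE 0.49, limma adjusted p = 0.000419, the fold being 4.67 with a pseudocount of 0.1), and Pfkfb2 0.458 and 0.683, against 3.04 and 3.66 (log2 fold -1.47 with SE 0.37, limma adjusted p = 0.00479, the fold being -2.38 with a pseudocount of 0.1). These 4 calls held under every setting tried, and none of the 4 pairs overlapped.

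The other 13 calls of that comparison ended in at least 1 setting. Slc16a3 had 31.6 and 50.96 FPKM in cultured Epi, against 9.29 and 0.291 in cultured VE (log2 fold 3.5 with SE 0.84, limma adjusted p = 0.00356), and the call ended when fitted on its own table and without cultured visceral endoderm replicate 2 (log2 fold 2.00 to 3.5, limma adjusted p = 0.117 to 0.161). Eno3 had 7.17 and 10.4 FPKM, against 1.11 and 0 (log2 fold 2.73 with SE 0.51, limma adjusted p = 0.000431, the fold being 4.65 with a pseudocount of 0.1), and the call ended when fitted on its own table (log2 fold 2.73, limma adjusted p = 0.0632). Pfkp was on the other side, with 1.09 and 1.98 FPKM in cultured Epi and 16.8 and 6.21 in cultured VE (log2 fold -2.18 with SE 0.51, limma adjusted p = 0.00295), and the call ended when fitted on its own table and without cultured visceral endoderm replicate 1 (log2 fold -1.53 to -2.18, limma adjusted p = 0.0664 to 0.112). Pdk3 had 25.9 and 24.3 FPKM in cultured Epi, against 2.06 and 4.61 in cultured VE (log2 fold 2.66 with SE 0.73, limma adjusted p = 0.00932), and the call ended with a pseudocount of 0.1, without cultured epiblast replicate 1 and without cultured visceral endoderm replicate 1 (log2 fold 2.22 to 2.98, limma adjusted p = 0.0556 to 0.0911). Ldhb had 68.2 and 61.0 FPKM in cultured Epi, against 26.1 and 0.594 in cultured VE, whose libraries differed widely (log2 fold 3.32 with SE 1.07, limma adjusted p = 0.0241, the fold being 5.36 without cultured visceral endoderm replicate 1), and the call ended with a pseudocount of 0.1, with no filter on low values, when fitted on its own table, without cultured epiblast replicate 1, without cultured epiblast replicate 2 and without cultured visceral endoderm replicate 2 (log2 fold 1.27 to 3.92, limma adjusted p = 0.0548 to 0.467). These VE libraries also held 73.3 to 316 FPKM of summed epiblast markers. When the Epi over VE difference after culture was compared with that at E6.5, 0 members were called in limma, with 6 at an unadjusted p under 0.05, against 0.437% of all genes (0.289% higher and 0.148% lower). That comparison spans 2 deposited tables, each with its own normalization. For Pfkp the difference was -2.63 with SE 0.72 (limma adjusted p = 0.143).

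Over the first days of culture 1 member passed the test. For 2 days over 1 day, 1 member was called, Fbp2, against 6.46% of all genes (4.08% higher and 2.37% lower). Fbp2 had 1.09 and 13.4 FPKM after 2 days, against 35.1 and 13.4 after 1 day, the lower 1-day library lying just above the higher 2-day library (log2 fold -2.06 with SE 0.57, limma adjusted p = 0.0338, the fold being -3.45 without 2 days of culture replicate 2), and the call ended with a pseudocount of 0.1, with no filter on low values, when fitted on its own table, without 1 day of culture replicate 1 and without 2 days of culture replicate 1 (log2 fold -0.67 to -2.45, limma adjusted p = 0.0766 to 0.86). The cultured embryos had Pfkp at 20.7 and 37.4 FPKM after 2 days, against 31.8 and 29.2 after 1 day, where the libraries overlapped. Ldha read 1729 and 824 FPKM after 2 days, against 1117 and 1346 after 1 day, again with overlap. Slc2a3 read 34.2 and 21.0 FPKM after 2 days, against 4.17 and 18.3 after 1 day, without overlap and with no call (limma adjusted p = 0.189). Leaving out a library gave 5 called members without 1-day replicate 2, 6 without 2-day replicate 1 and 2 without 2-day replicate 2.

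Genes next to the pathway were counted in the same way. Of 10 genes of pyruvate entry into mitochondria, 0 were higher and 2 lower in E5.5 Epi than in E4.0 ICM, 8.67% of all genes being higher and 8.94% lower. The lower ones were Mpc1 and Mpc2, the subunits of the mitochondrial pyruvate carrier. Mpc1 had 1.20 and 0.783 FPKM in E5.5 Epi, against 19.0 and 37.7 in E4.0 ICM (log2 fold -3.81 with SE 0.35, limma adjusted p = 1.79e-07). Mpc2 had 7.20 and 7.83 FPKM in E6.5 Epi, against 45.0 and 45.6 in E6.5 VE (log2 fold -2.44 with SE 0.34, limma adjusted p = 1.89e-05), and 4.92 and 7.45 in cultured Epi, against 41.1 and 50.05 in cultured VE (log2 fold -2.71 with SE 0.34, limma adjusted p = 4.72e-06). In E5.5 VE over E4.0 ICM 8 of the 10 were lower and 0 higher, 9.66% of all genes being higher and 25.7% lower. After quantile normalization 2080 of all genes were higher and 2147 lower in that comparison, against 1303 and 3473 without it. The count of this list after quantile normalization is not given here.

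Of 18 genes of the tricarboxylic acid cycle, 0 were higher and 4 lower in E5.5 Epi than in E4.0 ICM (median log2 fold -0.03, and 0.05 for all genes, 8.67% of all genes being higher and 8.94% lower). In E5.5 VE over E4.0 ICM 11 were lower and 0 higher, 9.66% of all genes being higher and 25.7% lower. The median log2 fold of the 18 was -1.12. That of all genes was -0.31, or -0.02 after quantile normalization, for which the count of this list is not given here. Of the 11 lower genes, Idh3g and Idh3b, subunits of isocitrate dehydrogenase, had the smallest p. Idh3g had 24.3 and 39.9 FPKM in E5.5 VE and 258 and 199 in E4.0 ICM (log2 fold -2.82 with SE 0.27, limma adjusted p = 1.41e-07). In E6.5 VE over E5.5 VE 15 were higher and 0 lower, 24.7% of all genes being higher and 2.49% lower, and after quantile normalization 2 were higher, Dlst and Sdha.

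Of 15 genes of the hypoxia response, 5 were higher and 3 lower in E5.5 Epi than in E4.0 ICM, 8.67% of all genes being higher and 8.94% lower. Bnip3, a mitochondrial protein of mitophagy, had 263 and 118 FPKM in E5.5 Epi, against 12.9 and 9.24 in E4.0 ICM (log2 fold 3.89 with SE 0.44, limma adjusted p = 2.04e-06). Egln3, an oxygen-sensing hydroxylase, had 17.5 and 15.4 FPKM, against 0.0725 and 0.507 (log2 fold 3.78 with SE 0.53, limma adjusted p = 2.33e-05). Vegfa, the vessel growth factor, had 0.149 and 0.357 FPKM in E5.5 Epi, against 12.8 and 13.6 in E5.5 VE (log2 fold -3.5 with SE 0.36, limma adjusted p = 4.62e-07), and the list gave 6 higher and 3 lower in that comparison, 27.1% of all genes being higher and 9.60% lower, or 4 and 3 after quantile normalization. In E4.0 ICM over E3.5 ICM the list gave 2 higher and 3 lower, 15.8% of all genes being higher and 4.80% lower. In each of these comparisons some of its genes were called on either side.

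Of 6 tested regulators of glycolytic genes, 4 were higher and 0 lower in E4.0 ICM than in E3.5 ICM, 15.8% of all genes being higher and 4.80% lower. Mycn had 57.9 and 68.7 FPKM in E4.0 ICM, against 2.52 and 4.41 in E3.5 ICM (log2 fold 3.88 with SE 0.31, limma adjusted p = 2.07e-08). Myc had 4.53 and 0.410 FPKM in E5.5 VE, against 104 and 96.6 in E4.0 ICM (log2 fold -5.18 with SE 0.46, limma adjusted p = 5.33e-08). E5.5 Epi had 46.7 and 30.7 FPKM of Myc, against that E5.5 VE level (log2 fold 3.80 with SE 0.46, limma adjusted p = 3.18e-06). Of 7 genes of the pentose phosphate pathway, 2 were higher and 1 lower in E5.5 Epi than in E4.0 ICM, 8.67% of all genes being higher and 8.94% lower. In E3.5 ICM over E3.5 TE 1 was higher and 1 lower, 9.54% of all genes being higher and 7.75% lower. Of 9 tested glycogen genes, 1 was higher and 4 lower in E3.5 ICM than in E3.5 TE, against the same shares of all genes. Pgm2 was among the lower ones, at 0.791 and 0.414 FPKM in ICM and 14.7 and 22.0 in TE (log2 fold -3.58 with SE 0.47, limma adjusted p = 1.18e-05). Of 6 other tested carriers of sugars and monocarboxylates, 2 were higher in E7.5 End than in E7.5 Mes, Emb and Slc37a4, 7.97% of all genes being higher and 2.24% lower. Emb, whose protein escorts MCT carriers to the cell surface, had 2896 and 2770.1 FPKM in E7.5 End, against 474 and 512 in E7.5 Mes (log2 fold 2.52 with SE 0.61, limma adjusted p = 0.00637), and the call ended without E7.5 Mes replicate 1 (limma adjusted p = 0.0555) and without E7.5 End replicate 1 (limma adjusted p = 0.0542).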

How the data were processed

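Expression of 30 libraries, 2 for each of 15 groups, was taken from 3 tables of FPKM values deposited by the authors, whose processing notes name mm9, TopHat2 2.0.11 and Cufflinks 2.0.2. FPKM tables carry no read counts, so depth and counting intervals are unknown. Values at or below 1e-06 were set to 0. Of the 22563 genes that every table lists, the 13493 reaching 1 FPKM in 2 or more libraries were fitted together on log2(FPKM + 1) with limma 3.58.1 in R 4.3.3 (trend on, 15 residual degrees of freedom), with each contrast kept within a table except the comparison of culture with E6.5. P-values were adjusted by Benjamini-Hochberg over all tested genes within a comparison. The procedure was tested on simulated data in which a gene had the same spread in every library. The real groups differed in spread, and that case was not simulated. Group shares are means ± SD.

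The members, the neighbouring gene lists and the tests were chosen with earlier results of these data known. Values in each library were given for up to 8 called members a comparison, taken in order of log2 fold among those whose higher group averaged 5 FPKM or more, and for some further members and related forms. Neighbouring genes were named by adjusted p, at most 3 in a comparison, apart from genes that complete a count of 5 or fewer, which were chosen after their values were seen. The settings varied were the pseudocount (0.1), the filter (none, or 5 FPKM), quantile normalization, a replicate block, a fit of 1 table and each library left out in turn. The 48 other samples of the series were not analysed here.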

Additional observations from a re-analysis of the deposited data

Results flagged for a closer look

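Both members called in the comparison of the Epi over VE difference between E6.5 and E5.5 are given here, since a difference between ages passed the test. For Eno1 the log2 fold of Epi over VE was 0.49 at E6.5 and 3.78 at E5.5, a difference of -3.29 (limma adjusted p = 0.0248). E5.5 VE read 2.67 and 0.905 FPKM, and the call ended after quantile normalization, without E5.5 epiblast replicate 1, without E5.5 visceral endoderm replicate 1, without E5.5 visceral endoderm replicate 2, without E6.5 epiblast replicate 1, without E6.5 epiblast replicate 2, without E6.5 visceral endoderm replicate 1 and without E6.5 visceral endoderm replicate 2 (log2 fold -2.44 to -3.85, limma adjusted p = 0.0508 to 0.113).

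For Slc2a2 the difference between ages was -2.22 (limma adjusted p = 0.0332). E6.5 VE read 17.6 and 17.3 FPKM and E5.5 VE 1.31 and 5.22, with Epi at or near 0 at both ages, so the fitted value of E5.5 depends on the pseudocount. In detail, the call ended with a pseudocount of 0.1, with no filter on low values, after quantile normalization, without E5.5 epiblast replicate 1, without E5.5 epiblast replicate 2, without E5.5 visceral endoderm replicate 1, without E6.5 epiblast replicate 1, without E6.5 epiblast replicate 2, without E6.5 visceral endoderm replicate 1 and without E6.5 visceral endoderm replicate 2 (log2 fold -1.51 to -2.28, limma adjusted p = 0.0591 to 0.2).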

How the results depend on the processing

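Leaving out 1 library at a time gave 9 to 12 called members for E3.5 ICM over TE (14 with all libraries), 11 to 14 for ICM at E4.0 over E3.5 (16), 15 to 18 for E5.5 Epi over E4.0 ICM (20), 10 to 14 for E5.5 VE over E4.0 ICM (14), 4 to 9 for E6.5 VE over E5.5 VE (8), 19 to 23 for E5.5 Epi over VE (25) and 6 to 9 for E6.5 Epi over VE (13). It gave 9 to 12 for cultured Epi over VE (17), 1 to 6 for 2 days over 1 day of culture (1), 0 to 1 for E6.5 over E5.5 Epi (0), 0 to 1 for E7.5 Ect over E6.5 Epi (1), 4 for E7.5 End over Mes (4), 1 for E7.5 End over E6.5 VE (1), and 0 for both E7.5 PS over E6.5 Epi and E7.5 Mes over PS. For the change between ages it gave 0 to 5 (2), and for culture against E6.5 0 to 2 (0).

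A fit of each table alone called 13 members for E6.5 VE over E5.5 VE, 1 for E7.5 PS over E6.5 Epi, 2 for E7.5 Mes over PS, 5 for E7.5 End over E6.5 VE, 6 for cultured Epi over VE, 0 for 2 days over 1 day and 5 for the change between ages, and could not be made for culture against E6.5, which spans 2 tables. A pseudocount of 0.1 and no filter on low values each called 0 for E7.5 Ect over E6.5 Epi, 11 for cultured Epi over VE, 0 for 2 days over 1 day and 1 for the change between ages, where quantile normalization called 0. None of the 136 called member folds changed sign in a setting run, and folds of members not called were not recomputed. The replicate block kept all 17 counts within 1.5 times and ended 2 calls, Pfkfb2 in E4.0 over E3.5 ICM (limma adjusted p = 0.0559) and Pfkp in E5.5 Epi over VE (0.0565). The replicate numbers were not taken to pair the samples. Over 105 pairs of groups the replicate differences correlated from -0.268 to 0.438, with a median of -0.0026 and 10 over 0.1. This summary mixes all stages, so it cannot tell whether tissues of the same age were paired. Causes were not tested. With 2 libraries a group and depth unknown, weak genes limit the reading.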

Other observations

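Between the 2 libraries of E5.5 Epi, 4 carriers lay farther apart than 9 of the enzymes. Slc2a1 read 288 and 79.8 FPKM in replicates 1 and 2, Slc2a3 64.0 and 7.64, Slc16a1 66.3 and 20.7 and Slc16a3 317 and 75.5. Replicate 1 exceeded replicate 2 by 1.63 to 2.91 on the log2 scale in the 4 carriers. In 9 enzymes (Gpi1, Pfkl, Aldoa, Tpi1, Gapdh, Pgk1, Pgam1, Pkm and Ldha) the same difference ran from -0.11 to 0.90. The genes were chosen after their values were seen. The split does not hold for every enzyme. Eno1, outside these 9, lay farther apart between the replicates than Slc16a1 did, and Aldoc and Hk1 also lay outside the range of the 9. In E6.5 Epi the 4 carriers differed by -0.06 to 0.17 between replicates. After 2 days of culture replicate 1 exceeded replicate 2 by 0.68 to 3.03 in the carriers and by -0.54 to 1.37 in the enzymes. What sets these libraries apart was not tested.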
